A study of Mus musculus with 26 samples.

Results

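Hsph1 and Ier5l are a pair of genes linked to the heat shock response, and their transcripts (TCONS_00083559 and TCONS_00060046) were followed across single mouse oocytes. They are 2 of the 38540 transcripts counted, and they are also 2 of the 100 transcripts that the study picked to tell NSN from SN oocytes. That list was selected on the adjusted p of the NSN to SN comparison in these same oocytes and on a published list of genes that differ between the stages. The stage differences of these 2 genes are therefore given as a description, without a p-value. Where they are counted among transcripts called by edgeR, the call repeats that choice and is no evidence. Fully grown germinal vesicle (GV) oocytes were taken from 2 wildtype C57Bl6/Babr females of 12 weeks, here mouse C and mouse D, freed of cumulus cells and stained with 5 µM Hoechst. An oocyte with no ring of chromatin around the nucleolus was called non-surrounded nucleolus (NSN), one with a full ring was called surrounded nucleolus (SN), and one with a partial ring was called intermediate. Polyadenylated RNA was sequenced from 9 NSN oocytes (5 of mouse C and 4 of mouse D), 16 SN oocytes (9 of mouse C and 7 of mouse D) and 1 intermediate oocyte of mouse D. The labels name no heat, inhibitor or gene deletion for any oocyte.

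Hsph1 encodes Hsp110 (also called Hsp105), a large relative of Hsp70. It releases ADP from Hsp70 so that the chaperone can bind its next client, and it holds unfolded proteins in solution. In cells under heat stress it is a classical target of heat shock factor 1 (HSF1), which binds arrays of the letters nGAAn. Ier5l encodes immediate early response 5 like, a protein of the IER family whose relative IER5 is induced by HSF1 and acts on HSF1 through a phosphatase. GV oocytes stop transcription as the ring around the nucleolus forms, so most of the RNA of an SN oocyte was made earlier and is stored or degraded. Levels here are CPM, the counts of a transcript per 1000000 counts of its oocyte, which are shares. With no spike-in RNA, a change in a share and a change in the RNA content of the cell cannot be told apart.

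In the GENCODE annotation of GRCm38, Hsph1 (ENSMUSG00000029657.15) lies on the minus strand of chromosome 5 from 149614287 to 149636376, with up to 19 exons in its 11 annotated transcripts, and Ier5l (ENSMUSG00000089762.3) is a gene with 1 exon on the minus strand of chromosome 2 from 30471537 to 30474219. No other annotated gene overlaps either of them. The nearest annotated gene of any kind is Wdr95 for Hsph1, 2393 bases away, and Ptpa for Ier5l, 23731 bases away. No transcript of another gene holds a stretch of at least 100 bases with at least 95% identity to a transcript of Hsph1 or Ier5l, so no near-identical copy was found at that limit. The promoters are shown because heat shock factors act through them. RefSeq gives 2 start sites for Hsph1 (149636336 and 149636315) and 1 for Ier5l (30474199). The 250 bases before the first of these for Hsph1 and before that of Ier5l (GRCm38.p6, minus strand, chr5:149636337-149636586 for Hsph1 and chr2:30474200-30474449 for Ier5l) read as follows, with pairs of heat shock units (TTCNNGAA or GAANNTTC) and CCAAT boxes (CCAAT or its complement ATTGG) in capitals.
Hsph1: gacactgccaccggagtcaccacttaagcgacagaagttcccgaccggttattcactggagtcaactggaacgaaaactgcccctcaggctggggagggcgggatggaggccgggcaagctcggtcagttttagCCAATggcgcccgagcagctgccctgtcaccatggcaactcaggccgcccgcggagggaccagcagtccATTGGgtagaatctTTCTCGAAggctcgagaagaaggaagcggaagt
Ier5l: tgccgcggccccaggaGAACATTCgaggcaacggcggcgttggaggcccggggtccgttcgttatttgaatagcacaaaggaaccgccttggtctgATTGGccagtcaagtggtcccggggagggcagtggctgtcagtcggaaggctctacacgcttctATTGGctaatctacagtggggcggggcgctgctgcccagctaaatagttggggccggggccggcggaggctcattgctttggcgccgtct
The Hsph1 window holds 1 TTCNNGAA match, from -33 to -26 counted back from the first start site, and CCAAT boxes at -116 to -112 and -47 to -43. Counted from the other start site, the same matches lie at -54 to -47, -137 to -133 and -68 to -64. The Ier5l window holds 1 GAANNTTC match, much farther from the start at -234 to -227, and CCAAT boxes at -154 to -150 and -90 to -86. GENCODE begins its outermost transcript 40 bases upstream of this start for Hsph1 and 20 bases upstream for Ier5l, so the Hsph1 match lies inside an annotated first exon there. The longer arrays GAANNTTCNNGAA and TTCNNGAANNTTC occur in neither window. Among all 32851 RefSeq promoter windows of this length, 12.8% hold TTCNNGAA or GAANNTTC and 33.8% hold a CCAAT box, while 0.247% and 0.244% hold the longer arrays. All motifs read the same on both strands or were searched on both, and a match is a match of letters only.

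Hsph1 was lower in every SN oocyte than in any NSN oocyte. The 9 NSN oocytes had 189 CPM at the lowest, 223 at the median and 310 at the highest (310 from 786 counts). The 16 SN oocytes had 89.4 CPM at the lowest, 120.0 at the median and 152 at the highest. The groups did not overlap, and the lowest NSN value was 1.25 times the highest SN value. The mean over NSN oocytes was 238 ± 43.4 CPM (SD, n = 9). The mean over SN oocytes was 116 ± 16.99 CPM (SD, n = 16), and the NSN mean was 2.05 times as high. The edgeR log2 fold change (SN minus NSN) was -0.99 with an SE of 0.10. This is the contrast on which Hsph1 was chosen, so nothing is read from it. As background, the same separation, with all SN oocytes below all NSN oocytes, was found for 66 of the 16657 transcripts that passed the filter on low counts, or 0.396%, and the reverse for 3 of them, or 0.018%.

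Since all SN oocytes lay below all NSN oocytes, the same holds within each mouse by construction, and the values by mouse add no support. In mouse C, the NSN oocytes had 201, 201, 204, 223 and 278 CPM of Hsph1, and the SN oocytes 94.3 CPM at the lowest, 116 at the median and 152 at the highest. In mouse D, the NSN oocytes had 189, 265, 271 and 310 CPM, and the SN oocytes 89.4 CPM at the lowest, 124 at the median and 128 at the highest. Within 1 mouse fewer oocytes are compared, and 1.4% of all tested transcripts in mouse C and 3.89% in mouse D separated in this direction.

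Ier5l was about as different on average, in the opposite direction, but its groups overlapped. The 9 NSN oocytes had 5.58 CPM at the lowest, 20.8 at the median and 31.1 at the highest. The 16 SN oocytes had 10.9 CPM at the lowest, 33.7 at the median and 52.6 at the highest. Of the SN oocytes, 9 lay above every NSN oocyte and 7 lay inside the NSN range, and 3 of the NSN oocytes lay below every SN oocyte. The mean over NSN oocytes was 17.7 ± 9.58 CPM (SD, n = 9). The mean over SN oocytes was 33.2 ± 14.7 CPM (SD, n = 16), 1.88 times as high. The log2 fold change was 0.94 with an SE of 0.27, again as a description of the contrast used to choose the gene. Over all tested transcripts, 8.07% were called lower and 5.4% higher in SN oocytes by edgeR at an adjusted p under 0.05.

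**Figure D1:**
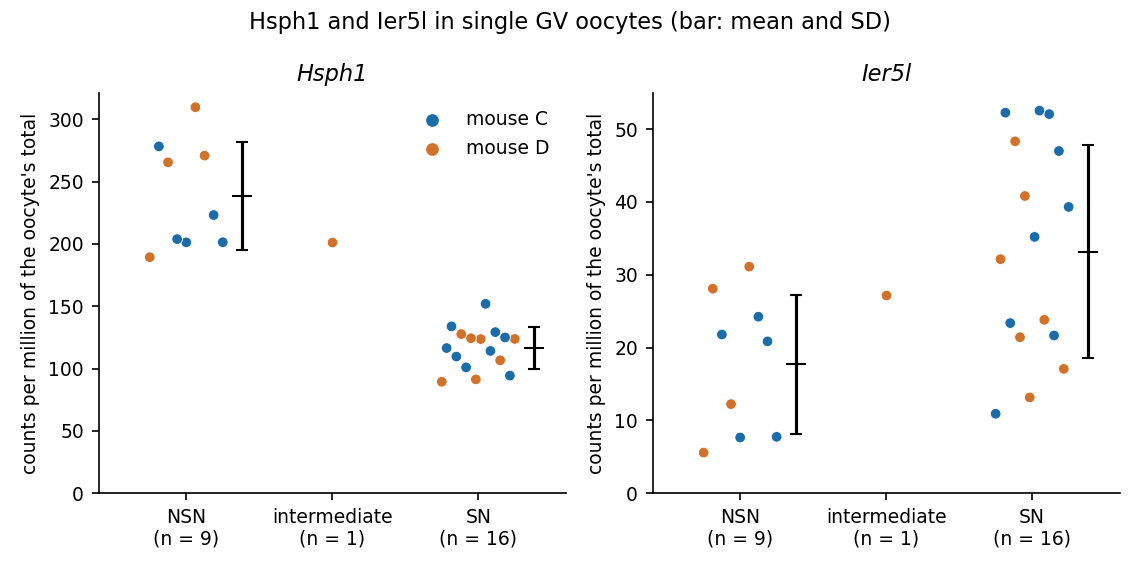
Levels of Hsph1 (left) and Ier5l (right) in CPM (vertical axis, from 0) for NSN, intermediate and SN oocytes (horizontal axis). Each point is 1 oocyte, coloured by mouse, and the bar beside the points is the mean with its SD. All 16 SN oocytes lie below all 9 NSN oocytes for Hsph1, whereas 7 SN oocytes lie inside the NSN range for Ier5l.

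Within mouse C, the NSN oocytes had 7.65, 7.74, 20.8, 21.8 and 24.2 CPM of Ier5l, and the SN oocytes 10.9 CPM at the lowest, 39.3 at the median and 52.6 at the highest. Within mouse D, the NSN oocytes had 5.58, 12.2, 28.1 and 31.1 CPM, and the SN oocytes 13.1 CPM at the lowest, 23.8 at the median and 48.3 at the highest. Among NSN oocytes the highest value was 3.17 times the lowest in mouse C and 5.58 times in mouse D. SN oocytes above all NSN oocytes of the same mouse numbered 6 of 9 in mouse C and 3 of 7 in mouse D. The ratio of mean SN to mean NSN level was 2.26 in mouse C and 1.46 in mouse D.

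Whether the mice differed was tested on terms that played no part in choosing the genes. The log2 difference of mouse D minus mouse C, with stage in the model, was 0.011 (SE 0.098) for Hsph1, with an edgeR adjusted p of 0.986. For Ier5l it was -0.19 (SE 0.26), with an edgeR adjusted p of 0.854. Neither difference passed the threshold, while 6 of 16657 transcripts (0.036%) did. That count depends on the setting: it was 0 with library size only (1724 at an unadjusted p under 0.05), 30 lower and 23 higher in mouse D with no filter, and 75 lower and 62 higher of 10745 with DESeq2. The stage difference of mouse D minus that of mouse C was -0.31 (SE 0.20) for Hsph1, with an edgeR adjusted p of 0.860, and -0.56 (SE 0.54) for Ier5l, with an edgeR adjusted p of 0.919. No transcript passed that test in edgeR (0.0%, with 994 at an unadjusted p under 0.05), and none in DESeq2 (1122 at an unadjusted p under 0.05). The SE of the Ier5l term was large beside the Ier5l stage difference itself (0.94), so a stage difference that is absent in 1 mouse could not be told from one of equal size at this number of oocytes. Each side of these tests is the oocytes of 1 mouse, and the p-values measure the spread between oocytes, not between mice.

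**Figure D2:**
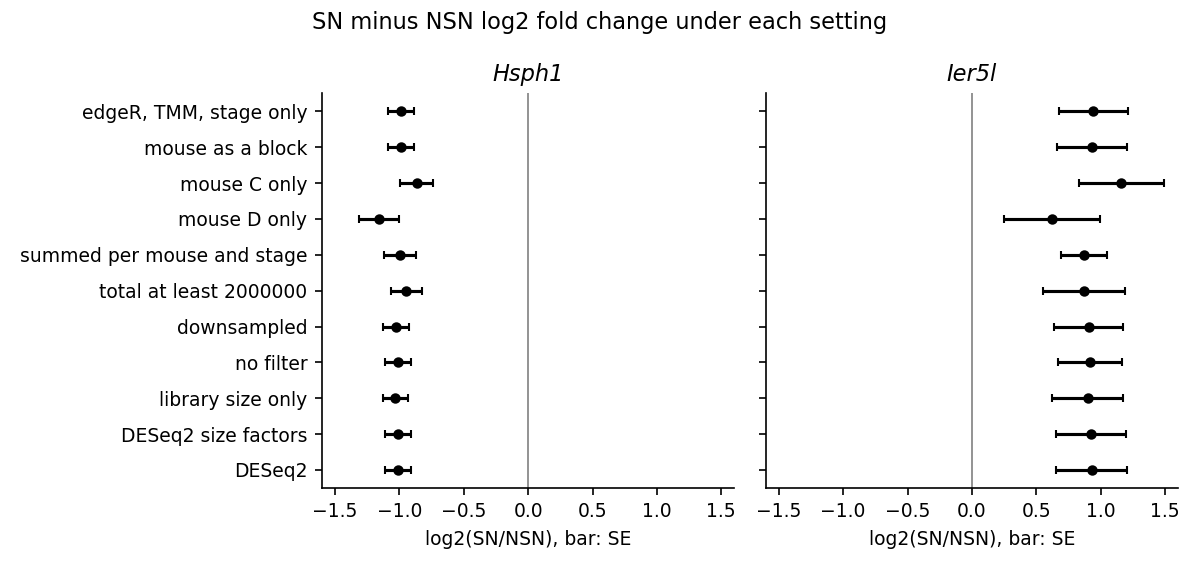
SN minus NSN log2 fold change of Hsph1 (left) and Ier5l (right) on the horizontal axis, for each setting of the analysis on the vertical axis. Points are the fitted values and bars are SE. Hsph1 lies between -1.16 (mouse D only) and -0.87 (mouse C only), and Ier5l between 0.62 (mouse D only) and 1.16 (mouse C only).

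Across 10 alternatives, which covered scaling, tool, filter, depth and mouse, the log2 fold change ranged from -1.16 to -0.87 for Hsph1 and from 0.62 to 1.16 for Ier5l. For both genes the extremes were the fits within 1 mouse. With all libraries thinned to the total of the smallest, 1358383 counts, the values were -1.02 (SE 0.10) for Hsph1 and 0.91 (SE 0.27) for Ier5l. With only oocytes of at least 2000000 counts, which leaves out 8 SN and 1 NSN oocyte, they were -0.95 (SE 0.12) and 0.87 (SE 0.32).

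The genes also differed in how much oocytes of 1 stage varied. For Hsph1 the coefficient of variation of CPM was 18.2% among NSN and 14.6% among SN oocytes, where counting error alone gives 4.05% and 6.49%. For Ier5l it was 54.2% among NSN and 44.2% among SN oocytes, where counting error alone gives 14.99% and 12.5%. The spread of Ier5l between oocytes was thus larger than the counting error of its reads in each stage. Amplification of the cDNA may add to that spread, and its part was not tested. In the fit over all transcripts, the biological coefficient of variation was 17% for Hsph1, against 20.5% for the trend at its abundance. It was 42.1% for Ier5l, against 25.2% for the trend. Of the 500 transcripts closest in abundance, 34% varied less than Hsph1 and 98.8% varied less than Ier5l. The highest Ier5l value was 5.58 times the lowest among NSN oocytes and 4.82 times among SN oocytes, while for Hsph1 the same ratios were 1.64 and 1.699.

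By mean CPM, Hsph1 ranked 1357 and Ier5l ranked 6206 among the 16657 tested transcripts. Per kilobase of the longest annotated coding transcript (3802 bases for Hsph1 and 2683 for Ier5l, as GENCODE gives them), the mean level of Hsph1 was 62.6 CPM per kb in NSN and 30.6 in SN oocytes. The mean level of Ier5l on that scale was 6.60 CPM per kb in NSN and 12.4 in SN oocytes. The lengths of the counted transcripts themselves are not in the count table, so these lengths stand in for them.

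The ratio of the members' counts within an oocyte does not depend on the library total. Hsph1 counts were 9.35 to 47.6 times Ier5l counts in NSN oocytes (median 11.5) and 1.89 to 11.8 times in SN oocytes (median 3.07). Of the SN oocytes, 14 lay below every NSN oocyte and 2 lay inside the NSN range. The NSN oocyte with the highest ratio, D-34, had 714 counts of Hsph1 and 15 of Ier5l. This ratio carries the same stage contrast as its parts and is a description as well.

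**Figure D3:**
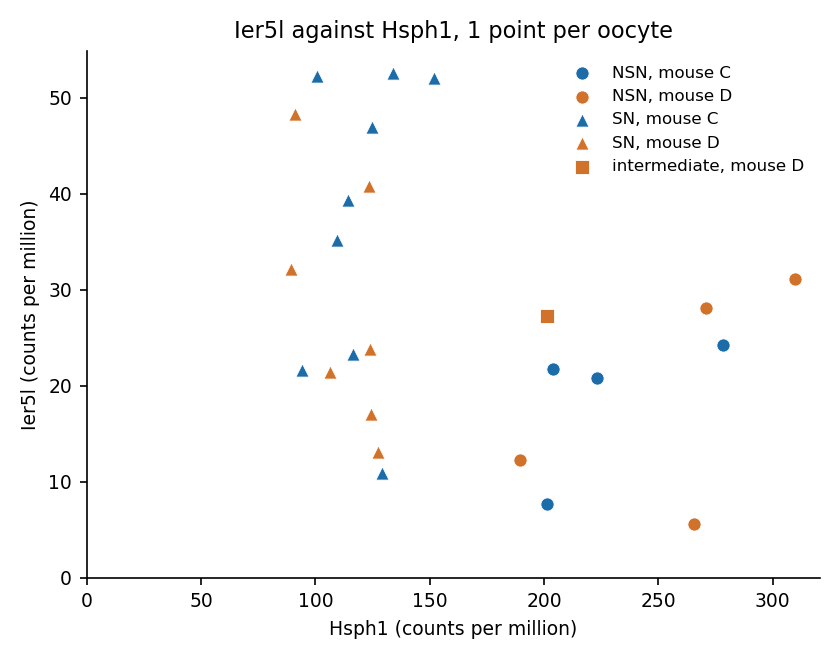
Ier5l (vertical axis) against Hsph1 (horizontal axis), both in CPM, with 1 point per oocyte. Shape marks the stage and colour the mouse, and 2 NSN oocytes of mouse C at 201 CPM of Hsph1 and 7.65 and 7.74 CPM of Ier5l overlap. SN oocytes form a column at low Hsph1 that spans 10.9 to 52.6 CPM of Ier5l.

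Among SN oocytes the genes did not track each other, while among the 9 NSN oocytes the correlation was positive. Over the 16 SN oocytes, Pearson's r of log2 CPM was -0.13 (Spearman's rho -0.04), and r was 0.17 without the 2 oocytes farthest from the median of Ier5l. Over the 9 NSN oocytes, r was 0.44 (rho 0.55), and 0.76 without the 2 farthest oocytes. These correlations describe few oocytes, which differ in library depth, and the values move with the choice of oocytes. Over all 25 NSN and SN oocytes with the mean of each stage subtracted, r between the genes was 0.12, higher than for 68.0% of all transcripts compared with Hsph1.

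The intermediate oocyte sat with NSN oocytes for Hsph1 and between the stage means for Ier5l. It had 436 counts of Hsph1, or 201.5 CPM (exact 95% interval 183 to 221), which is above all 16 SN oocytes and inside the NSN range. It had 59 counts of Ier5l, or 27.3 CPM (exact 95% interval 20.8 to 35.2), a level found in both stages. Its ratio of Hsph1 to Ier5l was 7.39, below every NSN oocyte and above the SN median. Intervals cover the counting error of reads only. The cDNA was amplified and reads carried no molecular identifiers, so the error in counting RNA molecules may be larger. The spread between intermediate oocytes cannot be given from 1 oocyte.

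Library totals ranged from 1886716 to 2983344 counts in NSN and from 1358383 to 3647827 in SN oocytes, and were lower in SN at the median (2069699 against 2690652). Among SN oocytes, Ier5l had r = -0.42 with the log2 total (rho -0.43, and r = -0.18 without the 2 oocytes farthest from the median total), and Hsph1 had r = 0.10 (rho 0.17). The 8 SN oocytes under 2000000 counts had a mean of 37.2 ± 15.5 CPM of Ier5l and the other 8 a mean of 29.2 ± 13.6 CPM (SD). For Hsph1 these means were 115 ± 21.2 and 118 ± 12.8 CPM. Among NSN oocytes r with the log2 total was -0.31 for Hsph1 and -0.31 for Ier5l. The part of depth in the Ier5l levels was not tested beyond the thinned and depth-restricted fits.

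**Figure D4:**
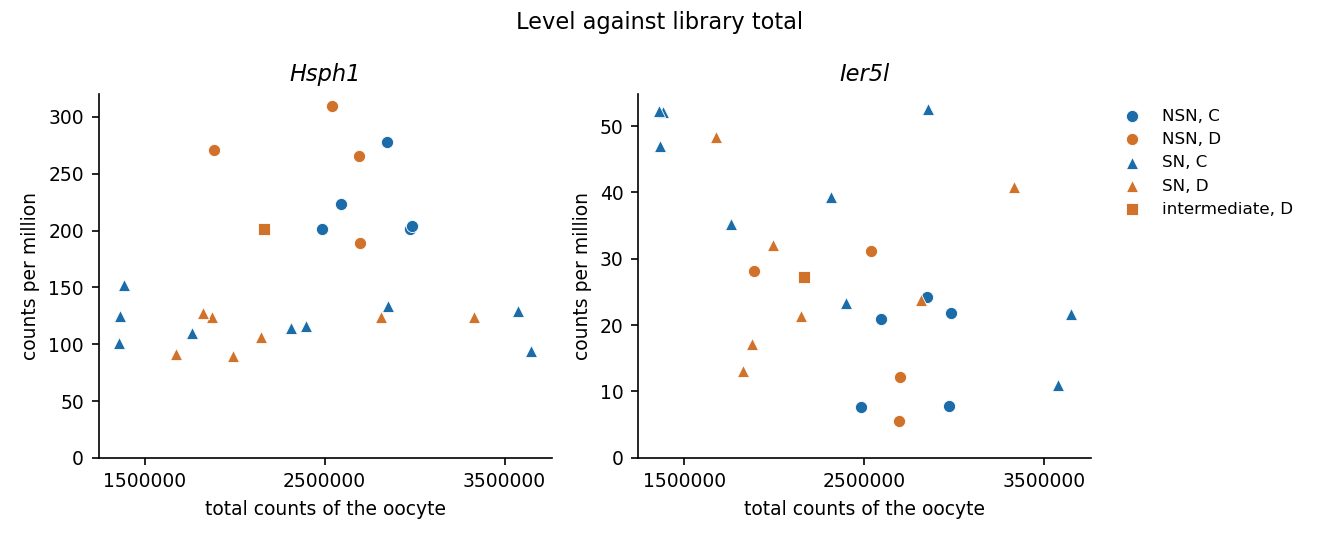
Hsph1 (left) and Ier5l (right) in CPM (vertical axis) against the total counts of the oocyte (horizontal axis). Points are oocytes, with shape for stage and colour for mouse. Of the SN oocytes of mouse C under 2000000 counts, C-19, C-20 and C-21 are among the highest for Ier5l (47.0 to 52.3 CPM). The other, C-17, is near the SN median at 35.2 CPM. Of mouse D below that total, D-27 had 48.3 CPM, D-10 32.1, D-28 17.1 and D-16 13.15. The highest SN value, 52.6 CPM in C-18, came from 2854395 counts. Hsph1 stays between 89.4 and 152 CPM in SN oocytes at all totals.

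Hsph1 works with other chaperones, but few of them carry a name in these data. The count table gives transcript identifiers without symbols, and 511 of 38540 could be named, 366 through the study's own lists of stage-dependent transcripts and 145 through Ensembl transcript identifiers. Of 160 symbols on 9 lists (Hsp70 and Hsp110, HSF, IER, nucleotide exchange cofactors, J-domain proteins, Hsp90 with cochaperones, small heat shock proteins, chaperonins with prefoldin, and immediate early genes), 6 had a named transcript. Hsph1 was the only one of 15 for the Hsp70 and Hsp110 family and Ier5l the only one of 4 for the IER family. None of the 8 HSF genes, 49 J-domain proteins, 10 small heat shock proteins or 25 immediate early genes could be named, so HSF1 and the inducible Hsp70 genes were not analysed here. Of the 5 named transcripts that were tested, 3 were lower (Hsph1, Hspbp1 and Fkbp4) and 1 higher (Ier5l) in SN oocytes, beside 8.07% lower and 5.4% higher over all tested transcripts. The study chose all 4 of these on this contrast, so the count is not independent evidence, and it was 3 lower and 0 higher among oocytes of at least 2000000 counts and 2 lower and 0 higher in mouse D only.

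Hspbp1, a nucleotide exchange factor that restrains Hsp70, had 1.59 to 9.06 CPM in NSN oocytes (median 5.05). In SN oocytes it had at most 2.92 CPM, with no count in 9 of the 16, where a count of 0 allows 0.839 to 2.21 CPM. The log2 fold change was -2.54 (SE 0.51). Fkbp4, an immunophilin that serves as an Hsp90 cochaperone, had 16.3 to 64.7 CPM in NSN oocytes (median 47.4) and 11.6 to 41.7 CPM in SN oocytes (median 20.1). Its log2 fold change of -0.95 (SE 0.19) was close in size to that of Hsph1. For Fkbp4, 13 of 16 SN oocytes lay inside the NSN range, where Hsph1 had 0. The low end of that range was a single oocyte, D-30 at 16.3 CPM, and the next lowest NSN oocyte, D-11, had 27.6 CPM. SN oocytes below all NSN oocytes of the same mouse numbered 8 of 9 in mouse C and 1 of 7 in mouse D. Unc45a, a chaperone for myosin that binds Hsp90, was counted in 8 of 9 NSN oocytes and 1 of 16 SN oocytes, at no more than 3.72 CPM, and did not pass the filter.

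Pfdn2, a subunit of the prefoldin complex that hands unfolded actin and tubulin to the chaperonin, is the only named transcript of these lists that was not chosen on the stage contrast. It had 7.42 to 20.5 CPM in NSN oocytes (median 14.5) and 3.83 to 19.9 CPM in SN oocytes (median 10.2). Its log2 fold change of -0.33 (SE 0.22) did not pass the edgeR test, with an adjusted p of 0.361. The value was -0.44 (SE 0.24) in mouse C only and -0.16 (SE 0.34) in mouse D only. Among oocytes of at least 2000000 counts it was -0.056 (SE 0.19).

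**Figure D5:**
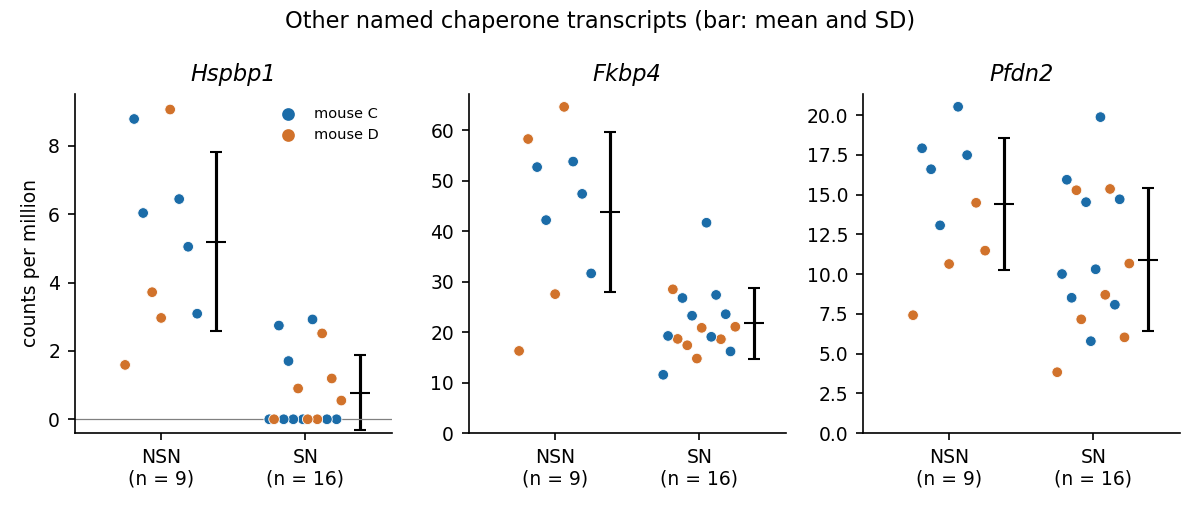
Levels in CPM (vertical axes, each on its own scale) of Hspbp1, Fkbp4 and Pfdn2 in NSN and SN oocytes. Points are oocytes coloured by mouse, and bars are the mean with its SD. None of these genes separates all SN from all NSN oocytes as Hsph1 does, and the mean of each is lower in SN oocytes.

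The cells carried oocyte transcripts at high levels. Of 10 oocyte markers, 4 were named. Zp3, which encodes a protein of the zona pellucida, had 1715 CPM in the lowest oocyte and 5052 CPM in the highest. The lowest values of Nobox, Oosp1 and Oog4 were 317, 291 and 589 CPM. The log2 fold change (SN minus NSN) was -0.61 for Zp3, -0.47 for Nobox, -0.55 for Oog4 and 0.79 for Oosp1. Of 8 granulosa and cumulus markers only Amh, the anti-Müllerian hormone gene, was named. It was counted in 7 of 9 NSN oocytes at up to 10.4 CPM and in 4 of 16 SN oocytes at up to 4.17 CPM. Its level was lower in SN oocytes, as those of Hsph1, Zp3, Nobox and Oog4 were, while Ier5l and Oosp1 were higher. Amh and the 4 oocyte markers were named through the study's own lists of stage-dependent transcripts. Their stage differences were part of that choice and are not independent evidence. The 2 NSN oocytes with no Amh count had 223 and 265 CPM of Hsph1, and 20.8 and 5.58 CPM of Ier5l. All NSN oocytes lay above all SN oocytes for Hsph1, so any subset of them does too and adds no support. Whether RNA of granulosa cells played a part in the levels of either gene was not tested. The 12 SN oocytes with no Amh count spanned 89.4 to 152 CPM of Hsph1 and 10.9 to 52.6 CPM of Ier5l, the full SN range of both genes.

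The transcripts whose levels followed each member within the stages were ranked by Pearson's r of log2 CPM over 25 oocytes, after each stage's mean was subtracted, among 300 other named and tested transcripts. The highest for Hsph1 were Ldhc, a lactate dehydrogenase of germ cells (r = 0.70), Nlrp4c, an oocyte gene of the NLR family (r = 0.62), and Snapc2, a subunit of the complex that starts small nuclear RNA transcription (r = 0.61). Ldhc was also the highest of all 16656 tested transcripts. The lowest for Hsph1 were Mthfsl (r = -0.59), Tcl1b3 (r = -0.55) and Gm17215 (r = -0.47). For the central 90% of all transcripts r with Hsph1 lay between -0.36 and 0.37.

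For Ier5l the highest were Wdtc1, a protein with WD and TPR repeats (r = 0.84), Tiam1, an exchange factor for the GTPase Rac1 (r = 0.83), and Nfya, a subunit of the factor NF-Y that binds CCAAT boxes (r = 0.83). The lowest were Cdkn2aipnl (r = -0.77), Noto, a homeobox gene (r = -0.71), and Nobox, a homeobox gene needed for oocyte growth (r = -0.69). The range for the central 90% of all transcripts was wider than for Hsph1, from -0.51 to 0.62, and reached 0.92 at the highest. Many named transcripts were chosen by the study for a stage difference, so they are not a sample of all transcripts. The oocytes compared differ in library depth, and its part in these correlations was not tested.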

How the data were processed

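Polyadenylated RNA of single GV oocytes was reverse transcribed with template switching, amplified and sequenced as single-end reads. TrimGalore was used for trimming, HISAT2 2.1.0 for alignment to GRCm38, and SeqMonk for counting over an oocyte transcriptome from earlier work. The values deposited by the authors are raw counts, not normalized, of each transcript. They left out oocytes that stood apart in clustering. The submitters' processing notes also name SAMtools 1.19.2 and DESeq2. Strand use and the treatment of reads that map to several places are not given in the sources used here. A deposited table of the authors' comparison (fold changes and p-values) was not used, and 0 columns of samples were left unused.

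Each oocyte took its stage and mouse from its label. CPM is the count over the column total times 1000000. Tests used edgeR 4.0.16 (R 4.3.3, TMM scaling, quasi-likelihood) on the 16657 transcripts that reached 3 counts in 9 or more NSN or SN oocytes, with Benjamini-Hochberg adjustment over all of them and a threshold of 0.05. The stage fit had stage as its only term, and the intermediate oocyte entered no fit. SEs come from the quasi-F statistic, and log2 CPM used a prior count of 2. DESeq2 1.42.0 was an alternative, as were other scaling, filters, thinned counts (without replacement, seed 7), a mouse block and sums per mouse and stage. The fits were tested on simulated data. Python 3.11.15, numpy 2.4.6, scipy 1.17.1 and pandas 2.3.3 gave the remaining values. Intervals are exact (Clopper-Pearson, 95%), and a count of 0 allows up to 3 counts.

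For replicates checked against each other (156 pairs within a stage), chi-square divided by its degrees of freedom was 2.78 to 21.6, and 0 pairs were identical. Symbols came from the study's lists and from GENCODE identifiers, promoter sequences from RefSeq on GRCm38.p6. The members and gene lists were chosen with earlier results of these data known. Named genes were Hsph1 and Ier5l, all tested named transcripts of the Hsp70 and Hsp110, HSF and IER families, the 3 smallest p in each direction of every other list, the 3 named transcripts with the highest and the 3 with the lowest within-stage r for each member, and Fkbp4 and Hspbp1. A further gene that the rule names is not reported here. Unc45a and Amh did not pass the filter and are given for completeness. The count table holds no coordinates, so transcripts that overlap the members were looked for among annotated genes only. Replicates are oocytes of 2 mice, so p-values measure the spread between these oocytes.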

Additional observations from a re-analysis of the deposited data

Results flagged for a closer look

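The ratio of Hsph1 to Ier5l counts stood apart in 1 NSN oocyte, D-34, at 47.6, with a gap to the next oocyte of 0.556 of the group's range (critical value 0.493 for 9 oocytes). That oocyte had 265 CPM of Hsph1, inside the range of the others, and 5.58 CPM of Ier5l (15 counts), the lowest of all. The ratio grows steeply as the Ier5l count becomes small, and neither gene's own level stood apart by the same measure. Amh, a granulosa cell marker, stood apart in another NSN oocyte, C-8, at 10.4 CPM, with a gap of 0.644 of the range. That oocyte had 201 CPM of Hsph1 and 7.74 CPM of Ier5l, both inside the ranges of the other NSN oocytes. Of 12 quantities examined in the 9 NSN oocytes these were the 2 that stood apart. About 1 in 20 groups of normally distributed values does so by chance. That rate need not hold for a ratio over small counts or for Amh, which had no count in some oocytes. The ratio is also made from Hsph1 and Ier5l, which are among the 12.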

How the results depend on the processing

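The log2 fold changes of Hsph1 and Ier5l between the stages kept their direction under all 10 alternatives and ranged from -1.16 to -0.87 for Hsph1 and from 0.62 to 1.16 for Ier5l. In mouse D only, both values moved by more than the SE over both mice (0.10 for Hsph1 and 0.27 for Ier5l). In mouse C only, the value of Hsph1 did so and that of Ier5l did not. The mouse terms kept their direction under 5 alternatives each, from 0.0011 to 0.032 for Hsph1 and from -0.19 to -0.17 for Ier5l, with adjusted p between 0.946 and 0.997 and between 0.765 and 0.878 (edgeR or DESeq2). The stage by mouse terms ranged from -0.31 to -0.30 and from -0.58 to -0.46, with adjusted p between 0.856 and 1.0 and between 0.888 and 1.0. Transcripts of the chaperone and stress lists called lower in SN numbered 3, and 4 with no filter or with DESeq2, where Unc45a entered, and 2 in mouse D only, where Hspbp1 had an adjusted p of 0.0607 (edgeR). The number called higher was 1, Ier5l, and 0 in mouse D only and among oocytes of at least 2000000 counts. It was 1 in the other 8 alternatives. The study chose the called transcripts on this contrast, so these counts are not independent evidence. Calls over all transcripts were 1345 lower and 899 higher, and 1570 and 592 with library size only, which shifted the median log2 fold change from 0.0063 to -0.037. The labels pair no single NSN oocyte with an SN oocyte, but both stages came from the same 2 mice. With mouse as a block, the log2 fold changes were -0.99 for Hsph1 and 0.93 for Ier5l. With counts summed per mouse and stage and mouse in the model, they were -0.996 and 0.87. Ier5l rested on as few as 15 counts in an oocyte and Hsph1 on at least 137, so Ier5l carries the larger counting error. With 2 mice, spread between animals cannot be estimated.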
